A study of Mus musculus with 6 samples.

Results

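The mitochondrial genome of the mouse was examined gene by gene in RNA-seq counts of abdominal fat. Its members were all 37 genes on the mitochondrial chromosome, whose symbols start with mt- in the GENCODE M21 annotation, out of 46603 gene identifiers in the count tables. They comprise 13 protein genes, 2 rRNA genes and 22 tRNA genes. The tissue was visceral adipose tissue of C57/Bl6 mice aged 18 months that received no treatment. The 6 libraries fell into 2 genotype groups, 3 lacking nuclear myosin 1 (NM1 KO) and 3 wild type (WT). Nuclear myosin 1 is a motor protein encoded by Myo1c that acts in nuclear transcription. The labels name no other allele or agent, and do not say whether the replicates came from separate animals, so the p-values reflect how these libraries vary, which may be technical variation alone. Values of the 3 libraries of a group are given in the order of replicates 1 to 3.

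Mitochondrial DNA is a small circle that is transcribed from both strands by a dedicated polymerase into long precursors. Its tRNA genes punctuate the precursors, and cutting at the tRNAs releases the mRNAs and rRNAs. The mRNAs encode core subunits of respiratory complexes I, III and IV and of ATP synthase, complex V. In white fat, oxidative phosphorylation supplies the energy for lipid storage and release. By convention the genes on the plus strand of the annotation are called heavy-strand genes and those on the minus strand light-strand genes, 28 and 9 of the members. The light-strand genes are mt-Nd6, a complex I subunit, and 8 tRNA genes.

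Total gene counts lay between 27525446 and 33537818 in NM1 KO libraries and between 24677758 and 31228723 in WT libraries. Myo1c had 452, 696 and 551 counts per 1000000 gene counts (CPM) in NM1 KO replicates 1 to 3, against 801, 758 and 801 CPM in WT replicates 1 to 3. Its adjusted p was 0.151 with edgeR, 0.0513 with DESeq2 and 0.0382 with limma-voom, so only limma-voom called it at 0.05. The Myo1c count covers all isoforms of the locus, and the labels do not say which part of the locus was altered, so it does not check the knockout. Summed over 8 markers of white adipocytes, the level was 27709 to 29298 CPM in NM1 KO and 28893 to 32478 CPM in WT, while 5 markers of epididymis and testis were at 0 in all libraries. Counts also followed GC content differently: Spearman's rho between a gene's GC content and its level in a library relative to the others was -0.440, 0.248 and -0.474 in NM1 KO replicates 1 to 3, against 0.367, 0.269 and 0.151 in WT replicates 1 to 3, as a description over 13920 genes.

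The genes are packed so tightly that neighbours share bases, and some have near-identical copies in the nucleus, so their sequences bear on what a count can tell. The sequences shown are those on which the results on ATP synthase, on nuclear copies and on tRNAs turn. They are from the GENCODE M21 transcripts on GRCm38, written 5′ to 3′ on the gene's own strand. The end of mt-Atp8 (chrM:7897-7969, plus strand) holds 43 bases that are also the start of mt-Atp6, in capitals. The ends of mt-Nd5 (chrM:13522-13565, plus strand) and mt-Nd6 (chrM:13552-13595, minus strand) face each other, with 14 shared positions in capitals on each strand.
end of mt-Atp8: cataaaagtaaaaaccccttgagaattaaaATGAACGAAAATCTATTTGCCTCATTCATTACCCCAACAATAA
end of mt-Nd5: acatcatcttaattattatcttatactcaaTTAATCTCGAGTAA
end of mt-Nd6: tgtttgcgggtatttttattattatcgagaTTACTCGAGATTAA

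The start of mt-Co2 (chrM:7013-7072, plus strand) and that of its nuclear copy Gm28661 (chr1:24615506-24615565, minus strand) have 0 differing bases in their first 60. The start of mt-Nd3 (chrM:9459-9518, plus strand) and that of its copy Gm28438 (chr1:24613060-24613119, minus strand) differ by T3C. Here the mitochondrial base stands before the position, counted from 1 at the first base of the gene, the copy's base stands after it, and capitals mark the base that differs.
mt-Co2: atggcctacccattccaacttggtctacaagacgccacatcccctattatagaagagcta
Gm28661: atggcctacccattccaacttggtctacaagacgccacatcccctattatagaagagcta
mt-Nd3: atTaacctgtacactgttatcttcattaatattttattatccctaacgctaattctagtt
Gm28438: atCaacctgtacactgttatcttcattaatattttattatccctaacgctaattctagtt

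Setting NM1 KO against WT asks whether transcripts of the mitochondrial genome differ in aged fat without nuclear myosin 1. Of the 37 members, 20 had at least 1 count and 18 passed the filter on low counts: all 13 protein genes, both rRNA genes and 3 tRNA genes. The other 19 were not tested. None of the 18 was called by edgeR's quasi-likelihood test at an adjusted p under 0.05, while 4.25% of all 15828 tested genes were called. Neither DESeq2 nor limma-voom called a member (0 and 0), against 14.2% and 10.4% of all tested genes. An unadjusted edgeR p under 0.05 was reached by 0 members and by 23.7% of all tested genes. The smallest adjusted p was 0.226 for mt-Tc, a tRNA gene, and 0.324 among protein and rRNA genes.

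The log2 fold change, NM1 KO over WT, was negative for 13 of the 18 and positive for 5, against 50.3% negative among all tested genes. Its median was -0.08 over the 18 and -0.002 over all tested genes. For protein genes the standard error (SE) of the log2 fold change ran from 0.20 to 0.36, against a median SE of 0.20 over all genes. These errors came with a wide spread among the NM1 KO libraries. The SD of log2 CPM was larger in NM1 KO than in WT for 17 of the 18, against 54.8% of all tested genes. Members arise from long shared precursors, so counts of members, here and further on, do not count independent observations.

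The spread had the same shape in nearly every protein and rRNA gene. NM1 KO replicate 2 was the lowest of the 6 libraries for 14 of these 15 genes, against 14.5% of all tested genes. NM1 KO replicate 1 was the highest library for 9 of the 15, against 24.7% of all tested genes, and NM1 KO replicate 3 lay mostly between them. The median log2 deviation of the 15 genes from their WT mean was 0.22, -0.84 and 0.003 in NM1 KO replicates 1 to 3, and -0.11, 0.09 and 0.006 in WT replicates 1 to 3. The ratio of the highest to the lowest NM1 KO library was 2.50 for the median protein gene, with a range of 1.30 for mt-Nd3 to 2.95 for mt-Nd5. Over all tested genes the median of that ratio was 1.35, and 13.1% of genes reached 2.50. Without NM1 KO replicate 2 the median log2 fold change of the 15 genes was 0.15, without NM1 KO replicate 1 it was -0.38, and with all libraries it was -0.06, so its sign turned with 1 library.

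Other measures differed among the NM1 KO libraries too. Summed skeletal muscle markers were at 21.1, 49.4 and 111 CPM in NM1 KO replicates 1 to 3, and at 54.9 to 129 CPM in WT. Summed B cell markers were at 229, 39.1 and 23.6 CPM in NM1 KO replicates 1 to 3, and at 50.5 to 97.3 CPM in WT. White adipocyte markers in NM1 KO replicate 2, the library with the lowest mitochondrial levels, were at 29298 CPM, the highest of the NM1 KO libraries and within the WT range. Erythroid markers summed to 380, 638 and 723 CPM in NM1 KO replicates 1 to 3 and to 831 to 934 CPM in WT, with 0 of 3 called by edgeR and 3 at an unadjusted p under 0.05. Mesothelium markers summed to 464, 697 and 608 CPM in NM1 KO replicates 1 to 3 and to 647 to 993 CPM in WT, with 1 of 5 called lower. Pancreas markers summed to 51.0 to 63.8 CPM in NM1 KO and 18.8 to 38.6 CPM in WT. Of 4 such markers 1 was tested, which edgeR did not call, while DESeq2 and limma-voom did. Between the groups, 4 of 6 macrophage markers were called higher in NM1 KO, summing to 3896 to 5090 CPM in NM1 KO and 1785 to 2615 CPM in WT. Among vascular endothelium markers 4 of 6 were called lower, summing to 302 to 466 CPM in NM1 KO and 763 to 990 CPM in WT. Markers of brown adipocytes, cells dense in mitochondria, summed to 30.9 to 37 CPM in NM1 KO and 14.1 to 22.9 CPM in WT, with 1 of 5 tested called higher. Over all 15828 tested genes, edgeR called 441 higher and 232 lower, and 23.7% had an unadjusted p under 0.05. The part of these cell types in the mitochondrial values was not tested, and in bulk tissue fewer cells of a type and less RNA per cell cannot be told apart.

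**Figure D1:**
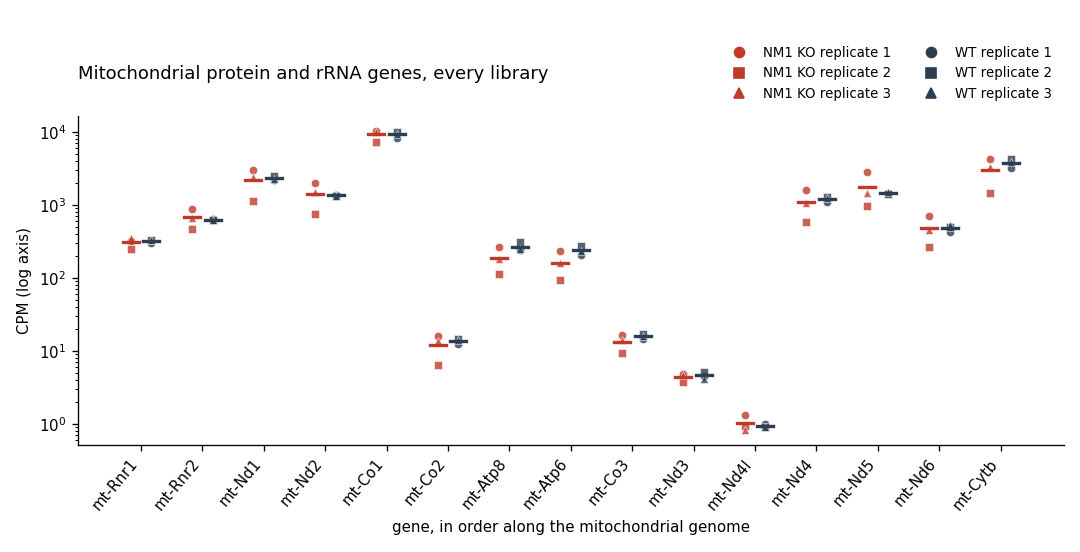
CPM on a log axis (vertical) for the 13 protein and 2 rRNA genes in order along the mitochondrial genome (horizontal), with NM1 KO libraries left of WT libraries for each gene and bars at group means. The squares of NM1 KO replicate 2 are the lowest points for 14 of the 15 genes, and the 3 WT points of a gene lie close together.

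Complex I, NADH dehydrogenase, takes 7 of its core membrane subunits from this genome. mt-Nd1 had 2973, 1119 and 2375 CPM in NM1 KO replicates 1 to 3, against 2194, 2456 and 2268 CPM in WT replicates 1 to 3. The NM1 KO values surrounded the WT values, and the log2 fold change was -0.10 ± 0.33 (SE; adjusted p = 0.884). mt-Nd2 had 2010, 747 and 1479 CPM in NM1 KO libraries, against 1373, 1339 and 1332 CPM in WT libraries, with a log2 fold change of 0.07 ± 0.32 (adjusted p = 0.921). For mt-Nd2 the NM1 KO libraries differed by 2.69-fold at most, and the WT libraries by 1.03-fold. mt-Nd4 had 1619, 578 and 1069 CPM in NM1 KO libraries, against 1077, 1285 and 1244 CPM in WT libraries (log2 fold change -0.14 ± 0.34, adjusted p = 0.833).

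mt-Nd5, the longest protein gene of this genome at 1824 bases, varied most of the complex I genes across NM1 KO libraries. It had 2803, 951 and 1461 CPM in NM1 KO libraries, against 1430, 1416 and 1510 CPM in WT libraries, with a log2 fold change of 0.26 ± 0.36 (adjusted p = 0.703). NM1 KO replicate 1 was well above every WT library and NM1 KO replicate 2 well below every one. mt-Nd6, on the light strand opposite the end of mt-Nd5, had 711, 268 and 446 CPM in NM1 KO libraries, against 423, 496 and 526 CPM in WT libraries (log2 fold change -0.02 ± 0.32, adjusted p = 0.978). Both genes thus ranked the NM1 KO libraries alike. The ratio of mt-Nd6 to mt-Nd5 per kilobase was 0.891, 0.991 and 1.07 in NM1 KO libraries, against 1.04, 1.23 and 1.22 in WT libraries, with overlapping ranges (exact permutation p = 0.2, two-sided). The 2 short subunit genes mt-Nd3 and mt-Nd4l were counted at 3.75 to 4.89 CPM and 0.837 to 1.35 CPM in NM1 KO libraries, and at 4.20 to 5.11 CPM and 0.921 to 0.998 CPM in WT libraries.

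Complex III takes mt-Cytb, its cytochrome b subunit, from this genome. It had 4210, 1474 and 3343 CPM in NM1 KO libraries, against 3175, 4246 and 3812 CPM in WT libraries. The ranges overlapped, and the log2 fold change was -0.32 ± 0.36 (adjusted p = 0.639). Without NM1 KO replicate 2 it was 0.01, of the opposite sign.

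Complex IV, cytochrome c oxidase, takes core subunits from mt-Co1, mt-Co2 and mt-Co3. mt-Co1 had the highest count of all members, at 10318, 7139 and 10070 CPM in NM1 KO libraries, against 8271, 9896 and 9376 CPM in WT libraries. Its log2 fold change was -0.0008 ± 0.20 (adjusted p = 0.998), a sign that turned under 7 of the 18 alternative fits. mt-Co2 had only 16, 6.53 and 13.8 CPM in NM1 KO libraries, against 12.6, 14.6 and 14.0 CPM in WT libraries (log2 fold change -0.19 ± 0.31, adjusted p = 0.758). mt-Co3 was as low, at 16.4, 9.45 and 14.2 CPM in NM1 KO libraries and 14.8, 17.4 and 15.9 CPM in WT libraries (log2 fold change -0.27 ± 0.21, adjusted p = 0.495). For both, NM1 KO replicate 2 was the library that stood apart.

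Complex V takes mt-Atp8 and mt-Atp6, membrane subunits of ATP synthase, from a joint mRNA on this genome. These genes had the most negative log2 fold changes of the 15 protein and rRNA genes. mt-Atp8 (chrM:7766-7969) had 266, 112 and 180 CPM in NM1 KO libraries, against 242, 308 and 251 CPM in WT libraries. mt-Atp6 (chrM:7927-8607) had 234, 93.6 and 159 CPM in NM1 KO libraries, against 207, 275 and 233 CPM in WT libraries. In both, NM1 KO replicates 2 and 3 lay below every WT library, and NM1 KO replicate 1 among the WT libraries. The log2 fold changes were -0.52 ± 0.29 for mt-Atp8 (adjusted p = 0.326) and -0.55 ± 0.31 for mt-Atp6 (adjusted p = 0.324). Without NM1 KO replicate 2 they were -0.26 and -0.28, and without NM1 KO replicate 1 they were -0.85 and -0.90, and neither gene was called.

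With each library's trend of counts on GC content and exonic length entered as an offset, mt-Atp8 was at -0.85 ± 0.16 (edgeR adjusted p = 0.0353) and mt-Atp6 at -0.88 ± 0.11 (adjusted p = 0.0170). With that offset mt-Co3 was at -0.54 ± 0.12 (adjusted p = 0.0485). All 3 were then called lower, as 1.98% of all tested genes were, and no other fit called a member. All 18 tested members had negative log2 fold changes with the offset, against 57.3% of all tested genes, and the median of the 15 protein and rRNA genes was -0.37, against -0.06 without it. Over all tested genes the median with the offset was -0.06. The 13 protein genes had a GC content of 31.9% to 41.1%, against a median of 49.9% for tested nuclear protein-coding genes, whose trend the offset used. How far that trend applies to mitochondrial genes was not tested.

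The rRNA genes encode the RNA of the mitochondrial ribosome. mt-Rnr1, the small-subunit rRNA, had 321, 246 and 356 CPM in NM1 KO libraries, against 302, 333 and 326 CPM in WT libraries (log2 fold change -0.06 ± 0.15, adjusted p = 0.845). mt-Rnr2, the large-subunit rRNA, had 884, 464 and 666 CPM in NM1 KO libraries, against 639, 612 and 629 CPM in WT libraries (log2 fold change 0.10 ± 0.22, adjusted p = 0.824). NM1 KO replicate 2 was the lowest library for both, though less far from WT than for most mRNAs. Its median log2 deviation from the WT mean was -0.41 over the rRNA genes and -0.85 over the 13 protein genes. The ratio of mt-Rnr2 to mt-Rnr1 per kilobase was 1.67, 1.14 and 1.13 in NM1 KO libraries and 1.28, 1.11 and 1.16 in WT libraries (exact permutation p = 0.8).

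**Figure D2:**
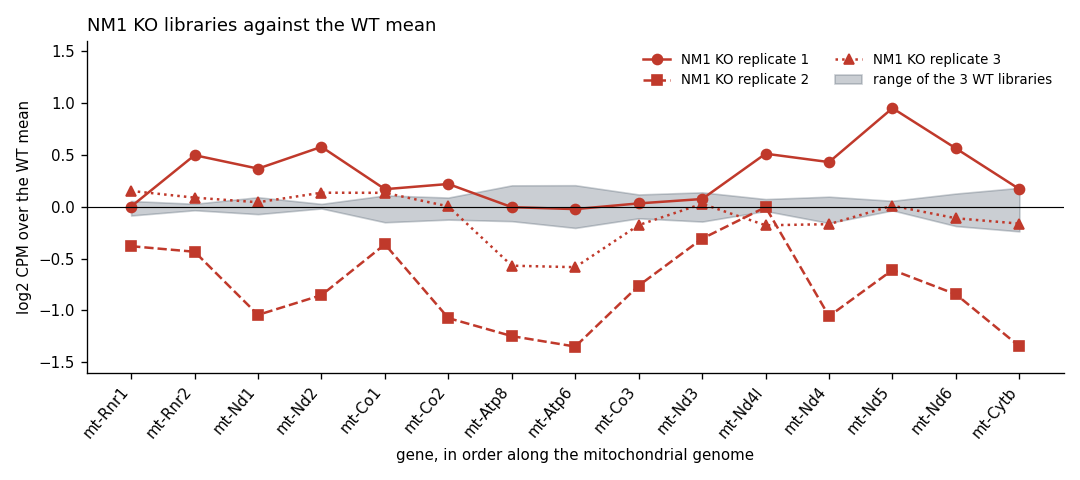
Log2 CPM of each NM1 KO library over the WT mean (vertical, red lines) for the 15 protein and rRNA genes in genome order (horizontal), with the range of the 3 WT libraries as a grey band. The line of NM1 KO replicate 2 lies below 0 at all 15 genes, and the lines of all 3 NM1 KO libraries dip at mt-Atp8 and mt-Atp6 relative to mt-Co1.

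The share of all gene counts that fell on the members shows the same spread as the single genes. It was 2.63%, 1.30% and 2.16% in NM1 KO replicates 1 to 3, against 1.97%, 2.28% and 2.18% in WT replicates 1 to 3. The 95% Wilson half-widths were at most 0.00577 percentage points, so counting error is small beside the differences among NM1 KO libraries. With both tails, 3 against 3 cannot give an exact permutation p under 0.1. Without NM1 KO replicate 2 the difference, NM1 KO minus WT, was 0.25 percentage points, and with it -0.11.

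Respiratory complexes need subunits from both genomes. The ratio of counts in the 13 mitochondrial protein genes to those in 76 nuclear genes for subunits of complexes I to V was 2.38, 1.05 and 1.87 in NM1 KO libraries, against 1.58, 1.70 and 1.85 in WT libraries. NM1 KO libraries lay above and below the WT range, and on the log2 scale the ratio was 0.74 ± 0.61 in NM1 KO and 0.77 ± 0.12 in WT (SD, n = 3 each; exact permutation p = 1). The nuclear subunits themselves took 1.05%, 1.17% and 1.10% of all counts in NM1 KO libraries, against 1.18%, 1.28% and 1.13% in WT libraries (exact permutation p = 0.2). NM1 KO replicate 2, with the fewest mitochondrial counts, thus had the largest nuclear subunit share of its group.

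Light-strand genes took 2.83%, 2.29% and 2.23% of the members' counts in NM1 KO libraries, against 2.36%, 2.33% and 2.61% in WT libraries. Most of these counts were on mt-Nd6, with 22104, 8796 and 12247 in NM1 KO libraries and 11453, 15538 and 13132 in WT libraries. The means were 2.45% ± 0.332 in NM1 KO and 2.44% ± 0.150 in WT (SD, n = 3 each), a difference of 0.0128 percentage points with an exact permutation p of 1. The half-width from counting was at most 0.0445 percentage points per library. mt-Nd6 alone, as a share of the 13 protein genes, averaged 2.38% in NM1 KO and 2.38% in WT, with a difference of -0.0005 percentage points. The strand setting of the counting is not stated, so counts at mt-Nd6 may include RNA of the opposite strand. The light-strand share is therefore a share of counts at these genes, not a measure of light-strand RNA alone. The rRNA genes took 4.56%, 5.36% and 4.71% of the members' counts in NM1 KO libraries, against 4.85%, 4.16% and 4.43% in WT libraries (exact permutation p = 0.4).

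The make-up of the mitochondrial mRNA pool can be compared within each library, whatever the total. Shares of the 13 protein genes are tied to each other, since they add up to the whole, and mt-Co1 alone took 41.0%, 57.1% and 48.8% in NM1 KO libraries, against 44.9%, 45.5% and 45.5% in WT libraries. The complex V genes took 1.99%, 1.65% and 1.64% in NM1 KO libraries, against 2.44%, 2.68% and 2.35% in WT libraries. All 3 NM1 KO libraries were below all 3 WT libraries. The means were 1.76% ± 0.197 in NM1 KO and 2.49% ± 0.170 in WT (SD, n = 3 each; exact permutation p = 0.1, the smallest possible).

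mt-Atp8 took 1.06%, 0.900% and 0.873% in NM1 KO libraries, against 1.32%, 1.41% and 1.22% in WT libraries, and mt-Atp6 took 0.931%, 0.748% and 0.771% in NM1 KO libraries, against 1.12%, 1.26% and 1.13% in WT libraries. These genes share 43 bases and a mRNA, so they are not independent. Their ratio of counts, mt-Atp8 over mt-Atp6, was 1.14, 1.20 and 1.13 in NM1 KO libraries and 1.17, 1.12 and 1.08 in WT libraries. The ranges of both shares also stayed apart per kilobase and as a log ratio to the geometric mean of the 13 genes. With the ranges apart, leaving out any 1 library could not turn the sign. The difference then ran from -0.43 to -0.32 percentage points for mt-Atp8 and from -0.41 to -0.31 for mt-Atp6.

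mt-Cytb took 16.7%, 11.8% and 16.2% of the 13 in NM1 KO libraries, against 17.2%, 19.5% and 18.5% in WT libraries. These ranges did not overlap either, but NM1 KO replicates 1 and 3 were close to WT replicate 1. On the log ratio scale the ranges of mt-Cytb overlapped (exact permutation p = 0.2). The small shares of mt-Co2 and mt-Co3 were the other 2 whose ranges did not overlap, and both overlapped per kilobase. Each of these 5 of 13 shares had an exact permutation p of 0.1, which is 0.26 when adjusted over the 13, so none passed the threshold. On the CPM scale, 29.9% of all tested genes and 1 of the 18 tested members had ranges without overlap between the groups. mt-Nd5 took 11.1%, 7.61% and 7.09% in NM1 KO libraries, against 7.76%, 6.51% and 7.33% in WT libraries (exact permutation p = 0.5). Without NM1 KO replicate 1 its difference was 0.15 percentage points, against 1.41 with all libraries. As a log2 ratio to the geometric mean of the 13, mt-Nd5 was at 3.29, 2.87 and 2.78 in NM1 KO libraries, against 2.73, 2.52 and 2.71 in WT libraries, without overlap (exact permutation p = 0.1).

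**Figure D3:**
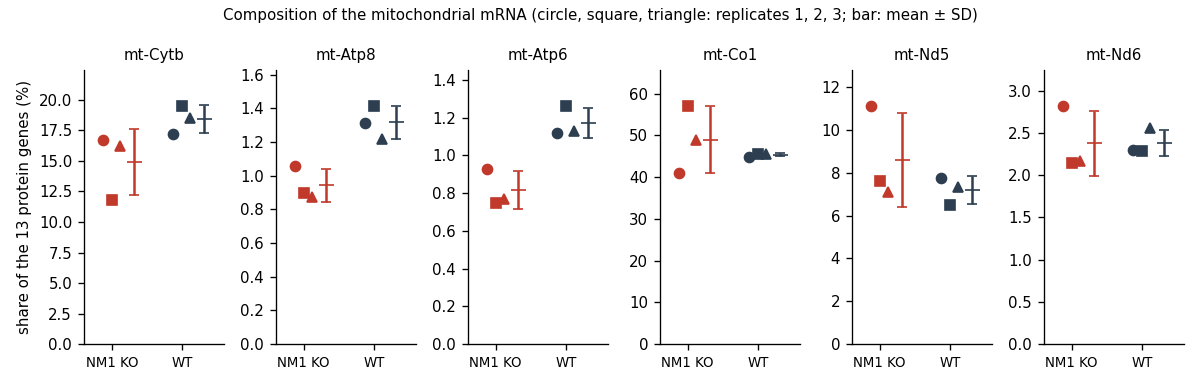
Share of the counts of the 13 mitochondrial protein genes (vertical, percent, from 0) taken by each of 6 genes, with NM1 KO left of WT, 1 symbol per library and the mean ± SD beside them. For mt-Cytb, mt-Atp8 and mt-Atp6 the 3 NM1 KO symbols are below the 3 WT symbols, and for mt-Co1, mt-Nd5 and mt-Nd6 the groups overlap.

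Levels can be compared between genes only per kilobase of gene. In NM1 KO the order was mt-Co1 at 5939 ± 1144, mt-Cytb at 2630 ± 1222 and mt-Nd1 at 2253 ± 989 CPM per kilobase (SD, n = 3), the last 2 closer than their SD. In WT the order was the same, with 5942 ± 537, 3273 ± 471 and 2410 ± 141 CPM per kilobase. mt-Atp8 was at 913 ± 377 in NM1 KO and 1309 ± 175 CPM per kilobase in WT. mt-Nd2 followed closely in WT, at 1360 ± 611 in NM1 KO and 1299 ± 21.2 CPM per kilobase in WT. mt-Nd6, mt-Nd4 and mt-Nd5 were at 790 to 953 CPM per kilobase in NM1 KO and 796 to 928 in WT. In NM1 KO these 3 and mt-Atp8 lay within 1 SD of each other, and in WT all 3 were under mt-Atp8. The rRNA genes were lower than these mRNAs, with mt-Rnr2 at 424 ± 133 in NM1 KO and 396 ± 8.63 CPM per kilobase in WT. mt-Rnr1 was at 322 ± 58.7 in NM1 KO and 335 ± 17 CPM per kilobase in WT, and mt-Atp6 at 238 ± 103 in NM1 KO and 350 ± 50.5 CPM per kilobase in WT, within 1 SD of it.

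At the bottom, mt-Co3 had 17 ± 4.50 in NM1 KO and 20.4 ± 1.64 CPM per kilobase in WT, and mt-Co2 had 17.7 ± 7.23 in NM1 KO and 20.1 ± 1.5 in WT. mt-Nd3 had 12.8 ± 1.77 in NM1 KO and 13.3 ± 1.30 CPM per kilobase in WT. mt-Nd4l, with 3.52 ± 0.911 in NM1 KO and 3.19 ± 0.144 CPM per kilobase in WT, was the lowest of the 15. These levels were far under that of mt-Co1, whose protein joins those of mt-Co2 and mt-Co3 in the same enzyme. They coincided with copies in the nuclear genome. Of all 75-base windows of a gene, 99.5% for mt-Co2, 99.9% for mt-Co3, 97.8% for mt-Nd3 and 98.7% for mt-Nd4l also occurred exactly in an annotated nuclear transcript. The windows of mt-Atp6 (99.5%), mt-Nd4 (61.5%) and mt-Co1 (39.8%) were also shared, yet these genes were counted at higher levels. For mt-Nd2 and mt-Nd5 the shared windows made up 5.71% and 1.66%, and for mt-Nd1, mt-Atp8, mt-Nd6, mt-Cytb and both rRNA genes 0%. Nuclear copies outside annotated transcripts were not searched for, so 0% does not show that a gene has no copy. Counters commonly leave out reads that match several places, but the labels give no counting settings, and the part of the copies in these levels was not tested.

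Of 12 annotated copies, 7 lie side by side on the minus strand of chromosome 1, in mitochondrial gene order. They are the pseudogenes Gm29216 of mt-Co1, Gm28661 of mt-Co2, Gm10925 of mt-Atp6, Gm28437 of mt-Co3, Gm28438 of mt-Nd3, Gm10222 of mt-Nd4l and Gm28439 of mt-Nd4, from chr1:24611535 to chr1:24616197 on GRCm38. Gm28439 has 0 mismatches to the first 876 bases of mt-Nd4, while Gm29216 has 6 to bases 1054 to 1545 of mt-Co1. The other 5 lie on chromosomes 2, 4 and 13 and hold the copied windows of mt-Nd2 and mt-Nd5 and some of those of mt-Co1 and mt-Co2. Together the 7 copies on chromosome 1 had 1373, 676 and 836 counts in NM1 KO replicates 1 to 3, and 791, 1297 and 836 in WT replicates 1 to 3. NM1 KO replicate 2 had the fewest counts here as well. Relative to the summed counts of all members these 7 came to 0.167%, 0.156% and 0.140% in NM1 KO libraries and 0.151%, 0.182% and 0.155% in WT libraries. Beside the gene each copies, counts summed over all libraries were 1601 for Gm28661 against 2237 for mt-Co2, and 1201 for Gm28437 against 2549 for mt-Co3. Gm28438 had 151 against 795 for mt-Nd3, and Gm10222 had 105 against 175 for mt-Nd4l. Gm10925 had 1348 against 34740 for mt-Atp6, Gm28439 had 549 against 199134 for mt-Nd4, and Gm29216 had 854 against 1599528 for mt-Co1. None of the 7 was called by edgeR. The largest of them by count, Gm28661, averaged 8.75 CPM in NM1 KO and 9.56 CPM in WT (log2 fold change -0.13 ± 0.39, adjusted p = 0.872).

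The genes with few windows in annotated nuclear transcripts gave the same picture in the genotype comparison. Over the 6 protein genes with at most 10% of windows copied, the median log2 deviation from the WT mean was 0.46, -0.95 and -0.05 in NM1 KO replicates 1 to 3. Over the 6 with over 50% copied it was 0.15, -0.91 and -0.17. NM1 KO replicate 2 was thus low in both sets. The median log2 fold change was -0.06 in the set with few copied windows and -0.16 in the set with many. The set with few holds mt-Atp8, which lies between mt-Co2 and mt-Atp6. On chromosome 1 the bases between their copies run from chr1:24614651 to chr1:24614885. Only annotated transcripts were searched there, so mt-Atp8 may have a copy that was not counted.

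**Figure D4:**
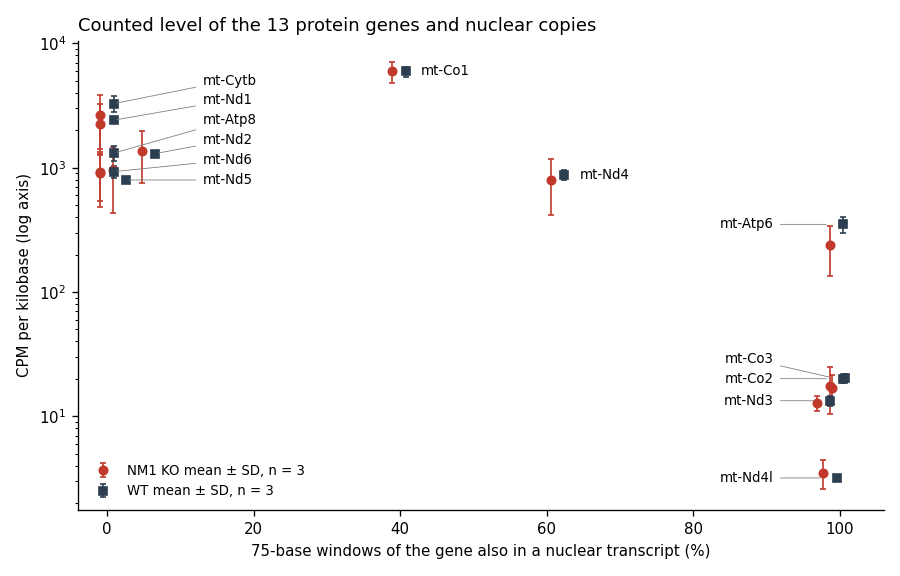
Mean CPM per kilobase on a log axis (vertical, ± SD, n = 3) against the percent of a gene's 75-base windows found exactly in a nuclear transcript (horizontal) for the 13 protein genes, NM1 KO in red left of WT in dark blue. The 4 genes at the bottom, mt-Co2, mt-Co3, mt-Nd3 and mt-Nd4l, have 97.8% to 99.9% of their windows copied, while mt-Atp6, with 99.5%, lies higher.

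The tRNA genes carry amino acids to the mitochondrial ribosome and are the shortest genes of this genome. Of the 22, 17 had 0 counts in every library, which allows up to 0.0895 to 0.122 CPM per library from counting error. The 5 with counts were all light-strand genes, 5 of 8, while 0 of 14 heavy-strand tRNA genes had any. Their sequences are given on the minus strand with the anticodon in capitals, for mt-Tp (proline, chrM:15356-15422), mt-Tn (asparagine, chrM:5089-5159) and mt-Tc (cysteine, chrM:5192-5257), the 3 that could be tested.
mt-Tp: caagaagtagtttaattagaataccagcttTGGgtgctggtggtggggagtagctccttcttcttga
mt-Tn: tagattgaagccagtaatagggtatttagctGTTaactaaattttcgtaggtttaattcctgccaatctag
mt-Tc: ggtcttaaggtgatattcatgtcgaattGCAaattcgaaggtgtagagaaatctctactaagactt

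What these 3 genes share is free space around them. The stretch at mt-Tp that touches no other gene is 944 bases long and runs through the control region, the non-coding part of the genome. At mt-Tn the free stretch is 105 bases and at mt-Tc 100 bases, and these genes flank the origin of light-strand replication. At the other 19 tRNA genes it is 75 bases or less, and those genes had 20 counts in total over 6 libraries. Considering only genes of the same strand, the free stretch was over 1000 bases at 4 tRNA genes that had 0 counts, mt-Tq, mt-Ta, mt-Ty and mt-Tt. Whether counts at tRNA genes came from mature tRNAs or from longer RNA that crosses them was not tested.

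mt-Tp had 36.3, 33.9 and 35.6 CPM in NM1 KO libraries, against 34.3, 33.3 and 36.1 CPM in WT libraries. It was the steadiest member across NM1 KO libraries, with a ratio of highest to lowest library of 1.07 in NM1 KO and 1.08 in WT, and did not share the low values of NM1 KO replicate 2. Its log2 fold change was 0.03 ± 0.10 (adjusted p = 0.882). mt-Tn had 10, 27 and 13 counts in NM1 KO libraries and 14, 22 and 13 in WT libraries (log2 fold change -0.10 ± 0.47, adjusted p = 0.916). mt-Tc had 6, 4 and 7 counts in NM1 KO libraries, against 13, 12 and 9 in WT libraries. It was the 1 tested member whose CPM ranges did not overlap, at 0.122 to 0.255 CPM in NM1 KO and 0.36 to 0.48 CPM in WT. The log2 fold change of -1.10 ± 0.49 did not pass the threshold (adjusted p = 0.226). mt-Ts1, the tRNA for serine with anticodon UGA, had 3, 4 and 3 counts in NM1 KO libraries and 3, 2 and 0 in WT libraries, and mt-Te, the tRNA for glutamate, had 5, 0 and 0 counts in NM1 KO libraries and 0 in every WT library.

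**Figure D5:**
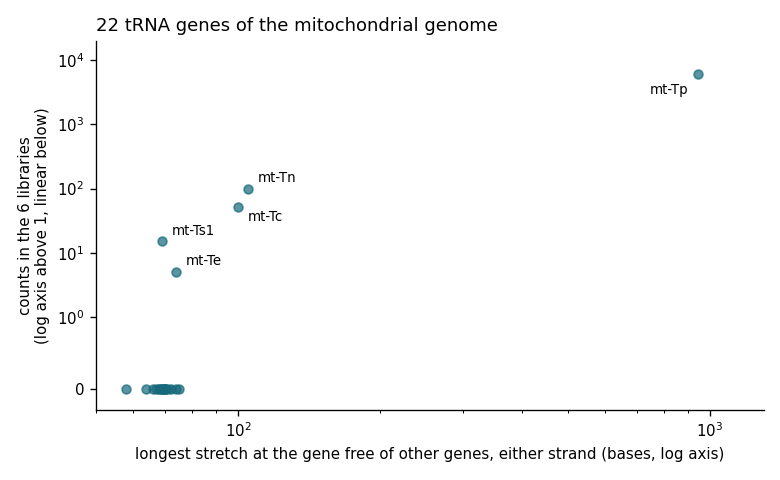
Summed counts of each of the 22 mitochondrial tRNA genes over the 6 libraries (vertical, log axis above 1 and linear under it) against the longest stretch at the gene that is free of other genes on either strand (horizontal, bases, log axis). The 17 genes at 0 all have 75 free bases or less, and mt-Tp, with 944, has the most counts.

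The nuclear genes that transcribe, process and translate mitochondrial RNA were compared as lists. The shares of all tested genes to read them against are 4.25% called by edgeR, 14.2% by DESeq2 and 10.4% by limma-voom, 23.7% with an unadjusted p under 0.05 and 50.3% with a negative log2 fold change. Of 21 tested genes for mitochondrial DNA transcription and replication, 30 for RNA processing and stability, 78 mitochondrial ribosomal proteins and 17 mitochondrial tRNA synthetases, edgeR called 0. At an unadjusted p under 0.05 there were 3, 3, 7 and 2, and DESeq2 called 1, 1, 2 and 1 and limma-voom 1, 1, 0 and 1. The median log2 fold changes were -0.03, -0.01, -0.09 and -0.09, against -0.002 over all tested genes. Among nuclear subunits of complexes I to V, 36, 4, 9, 11 and 16 were tested and edgeR, DESeq2 and limma-voom called 0, with unadjusted p under 0.05 for 1, 0, 1, 0 and 0. Their medians were -0.05, -0.08, -0.11, -0.04 and -0.10. Negative log2 fold changes were 26, 3, 8, 8 and 13 of these, and 13, 17, 58 and 12 of the genes in the other 4 lists.

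Polrmt, the mitochondrial RNA polymerase, had 30.6, 29.3 and 24.4 CPM in NM1 KO libraries, against 33.1, 31.1 and 32.2 CPM in WT libraries (log2 fold change -0.19 ± 0.12, adjusted p = 0.379). Its partners Tfam, which bends and packs mitochondrial DNA, and Tfb2m, which opens the promoter, were at 0.06 and -0.04, and the elongation factor Tefm at -0.001. Lrpprc, which binds and stabilizes mitochondrial mRNAs, had 52.9, 40.8 and 55.8 CPM in NM1 KO libraries, against 40.2, 42.8 and 36.1 CPM in WT libraries (log2 fold change 0.33 ± 0.15, adjusted p = 0.226). NM1 KO replicates 1 and 3 were above every WT library and NM1 KO replicate 2 among them. Its partner Slirp was at -0.01.

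Polg is the polymerase that copies mitochondrial DNA. It had 59.1, 74.6 and 68.2 CPM in NM1 KO libraries, against 89.0, 82.5 and 80.0 CPM in WT libraries, without overlap, but did not pass the threshold (log2 fold change -0.32 ± 0.12, adjusted p = 0.160). The helicase Twnk, which unwinds mitochondrial DNA, was at -0.22. Of the degradation enzymes, Supv3l1 was at -0.23 and Pnpt1 at 0.0003, and the tRNA-processing nuclease Elac2 was at -0.12. edgeR, DESeq2 and limma-voom called none of the 11 regulators named here.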

How the data were processed

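RNA of 6 visceral adipose libraries was measured by RNA-seq. The authors deposited 1 table of raw whole-number counts per gene for each library, with Ensembl identifiers and no normalization. Per the labels' protocols, total RNA went into NEBNext Ultra II RNA libraries sequenced on a NextSeq instrument. Per the submitters' processing notes, the tools included Trimmomatic 0.36, HISAT2 2.0.4, SAMtools 0.1.19 and HTSeq on GRCm38. Annotation, strand setting and mRNA selection are not stated, so counts of overlapping and copied genes are uncertain, as is the strand of the RNA counted at any gene.

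Of 46603 identifiers, 46091 matched GENCODE M21, which gave positions, strands and sequences. Groups came from the genotype labels. The members and gene lists were chosen with earlier results of these data known. The test across genes was that of edgeR 4.0.16 (R 4.3.3; filterByExpr, TMM, robust quasi-likelihood, genotype as the only term, two-sided, Benjamini-Hochberg, threshold 0.05). CPM used TMM-scaled sizes, and each SE was obtained as log2 fold change over root F. Shares and ratios were compared by exact two-sided permutation over libraries. Wilson intervals at 95% and the floor of 3 counts cover counting error only. A free stretch runs from the end of one neighbouring gene to the start of the next. Copied windows were exact 75-base matches in nuclear transcripts of GENCODE M21.

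Libraries within a group differed by a chi-square per degree of freedom of at least 35.9, which is beyond counting error. Each was counted as 1 sample, though this does not show that they came from separate animals. On simulated counts for this comparison over 16007 genes, 5.84% of edgeR's calls were false, and it found 50.5% of 2-fold and 96.9% of 4-fold changes. The simulation gave every gene the same dispersion, with no GC trend and no outlying library. These rates therefore do not describe genes with a wide spread among libraries, such as most mitochondrial protein genes.

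All members could be named, and the rule for other genes took Myo1c and a fixed set of mitochondrial regulators, of which not all are printed. The alternatives changed the size factors (RLE, upper quartile, library totals, nuclear genes only), the filter (none, 1 CPM), the dispersion (non-robust) and the model (replicate block), or used DESeq2 1.42.0, limma-voom (limma 3.58.1) with quality weights, protein-coding genes only, or an offset for GC content and length (splines with 5 degrees of freedom). Each library was also left out in turn.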

Additional observations from a re-analysis of the deposited data

How the results depend on the processing

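With all libraries and edgeR, 673 genes were called and 0 members. The count over all genes was 336 with the replicate block, 2239 with DESeq2, 1648 with limma-voom, and 1 to 1654 when 1 library was left out. It was 244, 1654 and 5 without NM1 KO replicates 1, 2 and 3, and 37, 4 and 1 without WT replicates 1, 2 and 3. Deviations of same-numbered libraries from their group means correlated at r = -0.032, -0.0037 and 0.268 for replicates 1 to 3. Libraries of different number were not compared, so these values do not settle whether the numbers pair them. Members called stayed at 0 in 17 of the 18 alternative fits and came to 3 with the GC and length offset. Genes called in the nuclear lists were 0, against 1 with library totals alone, with the 1 CPM filter and with protein-coding genes only, 5 with DESeq2, 3 with limma-voom, and 0 to 3 with 1 library left out.

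Of 321 refits of single members, 284 kept direction and call, 34 turned direction and 3 were called only there; the cause was not tested. mt-Co1 came to 0.0020 with RLE, 0.0014 without a filter, 0.0020 with DESeq2 and 0.11 with limma-voom. With limma-voom mt-Rnr1 was at 0.064, mt-Nd3 at 0.024 and mt-Nd4l at -0.0086, and with the replicate block mt-Nd2 was at -0.043. mt-Tp was at -0.0082 with upper-quartile factors. With the GC and length offset mt-Rnr2 was at -0.14, mt-Nd2 at -0.26, mt-Nd4l at -0.17, mt-Nd5 at -0.063 and mt-Tp at -0.25.

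With 1 library left out, log2 fold changes ran from -0.13 to 0.31 for mt-Rnr2, -0.26 to 0.37 for mt-Nd2, -0.55 to 0.18 for mt-Tn, -0.071 to 0.28 for mt-Nd4l, -0.25 to 0.55 for mt-Nd5, -0.17 to 0.079 for mt-Rnr1, -0.38 to 0.21 for mt-Nd1, -0.078 to 0.15 for mt-Co1, -0.42 to 0.12 for mt-Co2, -0.13 to 0.050 for mt-Nd3, -0.53 to 0.16 for mt-Nd4, -0.42 to 0.26 for mt-Nd6 and -0.62 to 0.013 for mt-Cytb. The difference in mitochondrial share ran from -0.41 to 0.25 percentage points, in light-strand share from -0.18 to 0.12, and in the log2 ratio to nuclear subunits from -0.28 to 0.31. The light-strand difference was -0.00049 as mt-Nd6 among the 13. Shares among the 13 ran from -1.17 to 0.26 points for mt-Nd1, -0.12 to 0.89 for mt-Nd2, -0.40 to 7.66 for mt-Co1, -0.0018 to 0.0035 for mt-Nd3, -2.8e-06 to 0.0017 for mt-Nd4l and -0.22 to 0.12 for mt-Nd6. mt-Nd1 was at 0.0023 as a log ratio, and mt-Nd6 at 0.18 per kilobase and 0.086 as a log ratio.

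With 3 libraries a group an exact p cannot go under 0.1. By counting, the mitochondrial share resolves to within 0.00577 points and the light-strand share to within 0.0445 points, so for both the spread between libraries sets the limit. Counting error of the other shares was not computed. Of the nuclear list medians, 148 of 162 refits lay within the SD of replicates.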
